A study of Mus musculus with 12 samples.

Results

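Chi3l1 (ENSMUSG00000064246) encodes a secreted chitinase-like glycoprotein. It is 1 of the 57180 genes in a deposited expression table of HC11 cells, a mouse mammary epithelial line, and 1 of 14426 genes that reached 1 TPM (a length-corrected share of a library's transcripts that sums to 1000000) in at least 3 of 12 libraries. The gene was singled out because its level stood high after knockdown of Snail1, the zinc-finger repressor encoded by Snai1. The sizes of the knockdown effects at 0 h and 36 h, and of its differences with time, are therefore given as a description, with no test.

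Sorted HC11 cells, control or Snail1 knockdown, aggregated overnight in one medium with serum, EGF and insulin, entered an in vitro migration assay, and were collected at its start (0 h) or after 36 h. The 4 groups were control at 0 h, control at 36 h, knockdown at 0 h and knockdown at 36 h, with 3 libraries each. Controls are labelled WT for genotype and scr in their titles. How the knockdown was made is not given in the sample labels, though the headings of the authors' knockdown group means carry the prefix sh. All cells belong to 1 line, and the labels do not say whether a group's libraries are separate cultures. p-values then measure only the spread between these libraries, which may be technical. Control 36 h libraries carry the numbers 1, 3 and 4. The title of library 4 begins with an unexplained "mix"; if it is a pool of the others, that group holds 2 independent samples. The authors' deposited group mean for control at 36 h averages libraries 1 and 3 only, whereas their other group means cover all 3 libraries.

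As background, Chi3l1 belongs to the glycoside hydrolase family of chitinases, and its protein keeps the sugar-binding fold while lacking chitinase activity. The human counterpart is widely measured as a serum marker of inflammation and cancer. The protein is made by macrophages, neutrophils, chondrocytes and epithelial cells, is induced by inflammatory cytokines, and was named a breast regression protein in the mouse because it appears as the mammary gland involutes. Reported partners on target cells include the decoy receptor encoded by Il13ra2 with its co-receptor Tmem219, Cd44, galectin-3 (Lgals3), syndecan-1 (Sdc1) and integrin alpha-v beta chains.

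Since Snail1 acts on DNA, the start of the gene is shown first. The RefSeq window from 250 bases before to 50 bases after the start lies on the plus strand at chr1:134181906-134182205 in GRCm38.p6, where the gene carries its older symbol Chil1. Capitals mark 2 matches to CANNTG, the general E-box core, and 1 match to an NF-kB motif.
Chi3l1 promoter: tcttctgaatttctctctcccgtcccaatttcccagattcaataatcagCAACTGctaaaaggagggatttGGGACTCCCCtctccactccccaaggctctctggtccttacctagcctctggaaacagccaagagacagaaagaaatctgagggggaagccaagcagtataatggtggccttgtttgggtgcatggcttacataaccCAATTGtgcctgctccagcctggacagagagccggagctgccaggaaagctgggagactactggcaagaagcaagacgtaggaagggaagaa

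The E-box matches begin 201 and 42 bases before the start, and the NF-kB match begins 179 bases before it. A CANNTG match occurs in 72.3% of the 32851 RefSeq windows of this length, and an NF-kB match in 8.46%. The Snail-type E-box CAGGTG, which is a case of CANNTG, was not found in the Chi3l1 window and occurs in 20.2% of windows. The STAT motif TTCNNNGAA (8.30% of windows), the AP-1 motif TGANTCA (7.81%) and TATAAA (13.6%) were also not found. Both strands were searched, and these are matches of letters only.

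Snai1 itself was read out first. Its TPM values were 1.34, 2.51 and 1.69 in control and 0.58, 0.79 and 0.48 in knockdown at 0 h. At 36 h they were 2.77, 2.69 and 3.92 in control and 0.58, 0.44 and 0.20 in knockdown. The groups did not overlap at either time. On the log2(TPM + 1) scale Snai1 fell by 0.80 at 0 h (adjusted p = 0.0348) and by 1.55 at 36 h (adjusted p = 0.0106), with limma and Benjamini-Hochberg adjustment over all tested genes. The 0 h fall did not pass when any control 0 h library, knockdown 0 h library 1 or knockdown 36 h library 2 was dropped, nor after scaling by median-of-ratios factors, explained below (0.191). The 36 h fall did not pass when control 36 h library 4, knockdown 36 h library 2 or knockdown 36 h library 3 was dropped.

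1 library stood apart. Knockdown 0 h library 2 had 13.99% of its TPM in mitochondrial genes, against 1.45% to 6.15% elsewhere, and a median-of-ratios scaling factor of 0.507, against 0.902 to 1.22. Such a factor is the median, over tested genes, of a library's level against the mean of all libraries; dividing by it removes a shift shared by most genes. Over all tested genes the median log2 difference between knockdown and control at 0 h was -0.41 as deposited and 0.02 after scaling. In the knockdown between 0 h and 36 h it was 0.33 and -0.00.

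Chi3l1 was expressed in all 12 libraries. At 0 h the controls held 201, 193 and 278 TPM, a mean of 224 ± 46.9 (SD, n = 3). The knockdown libraries held 1453, 723 and 1427 TPM at 0 h, a mean of 1201 ± 414 (SD, n = 3). Every knockdown library lay above every control, and the lowest of them was knockdown 0 h library 2. At 36 h the controls held 130, 114 and 110 TPM (118 ± 10.5, SD, n = 3), and the knockdown libraries held 1316, 1225 and 1269 TPM (1270 ± 45.5, SD, n = 3). The 36 h groups were the tightest, with coefficients of variation of 8.93% and 3.58%, and knockdown at 0 h was the widest at 34.5%. In bulk RNA, fewer cells of a kind and less RNA per cell cannot be told apart.

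**Figure D1:**
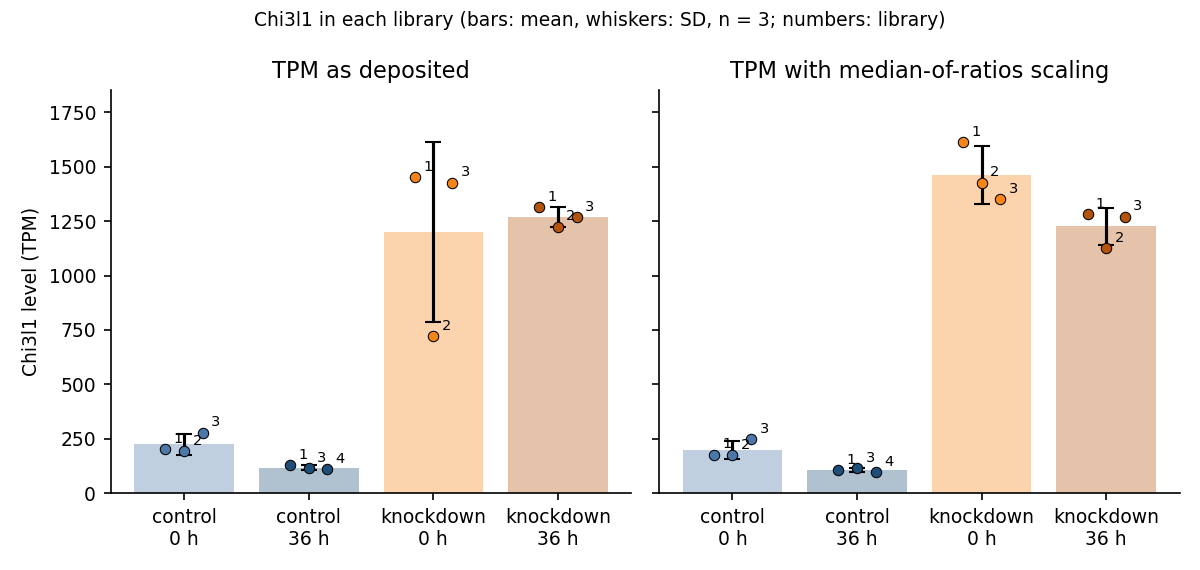
Chi3l1 level in TPM in each of the 12 libraries, by group, as deposited (left) and with median-of-ratios scaling (right). Points are libraries with their numbers, bars the mean and whiskers the SD (n = 3). All 6 knockdown libraries lie above the 6 control libraries, and knockdown 0 h library 2 sits at 723 TPM as deposited.

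The order of the mean levels was control 36 h, control 0 h, knockdown 0 h and knockdown 36 h. The last pair overlapped, at 723 to 1453 TPM and 1225 to 1316 TPM, and differed by less than the 0 h spread. After median-of-ratios scaling that pair changed order, to 1463 ± 134 at 0 h and 1226 ± 86.3 at 36 h (SD, n = 3), while the controls kept theirs at 199 ± 41.8 and 105 ± 9.18. Knockdown 0 h library 2 then read 1427, between the 1611 and 1350 of its group.

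In terms of abundance, the transcript ranked between 634 and 937 of 57180 genes in the control 0 h libraries and between 1538 and 1689 in the control 36 h libraries. It ranked 80, 244 and 77 in the knockdown 0 h libraries and 83, 87 and 86 in the knockdown 36 h libraries. Its share of all TPM ran from 0.0110% to 0.0278% in controls and from 0.0723% to 0.145% in the knockdown.

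The knockdown mean was 5.36 times the control mean at 0 h, a difference of 977 TPM. At 36 h it was 10.8 times the control mean, a difference of 1152 TPM. The lowest knockdown library was 2.60 times the highest control at 0 h and 9.44 times at 36 h. With scaled values the ratios were 7.35 and 11.6. On the log2(TPM + 1) scale the effect was 2.37 (SE 0.260) at 0 h and 3.42 (SE 0.260) at 36 h. The SEs are equal because the 4 groups share 1 estimate of spread. From only the groups compared they were 0.348 at 0 h and 0.0863 at 36 h. The 36 h effect was larger by 1.06 (SE 0.368). This gap was smaller with median-of-ratios scaling (2.89 at 0 h and 3.53 at 36 h). It was also smaller without knockdown 0 h library 2 (2.70 and 3.42). Between 0 h and 36 h the mean difference was -106 TPM in control and 68.7 TPM in knockdown.

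The 36 h effect held between 3.38 and 3.56 under all 24 alternatives, and was 3.38 without control 36 h library 4. The 0 h effect ranged from 2.20 to 2.90 and was 2.70 without knockdown 0 h library 2. Among all tested genes Chi3l1 ranked 104 by increase at 0 h and 20 at 36 h. Of the 103 genes above it at 0 h, 94 were shorter than 300 bases and 90 were predicted genes or pseudogenes. All 19 genes above it at 36 h were predicted genes, pseudogenes or the microRNA gene Mir678. Among the 13890 tested genes of at least 300 bases its rank was 10 at 0 h and 3 at 36 h.

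Genes just outside and just inside its place, counting named genes with a group mean of at least 5 TPM, give the scale. At 0 h the 3 above were Ndufb4b (2.76), n-R5s143 (2.50) and Mir6340 (2.37), and the 3 below were Ifi27l2a (2.34), Rny1 (2.32) and the chemokine gene Ccl5 (2.31). At 36 h Mir678 alone stood above Chi3l1, and Rnu4atac (3.31), Mir5122 (3.30) and Dcpp1 (2.83) followed it. Most of these neighbours are short noncoding RNAs, whose TPM values rest on few bases.

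**Figure D2:**
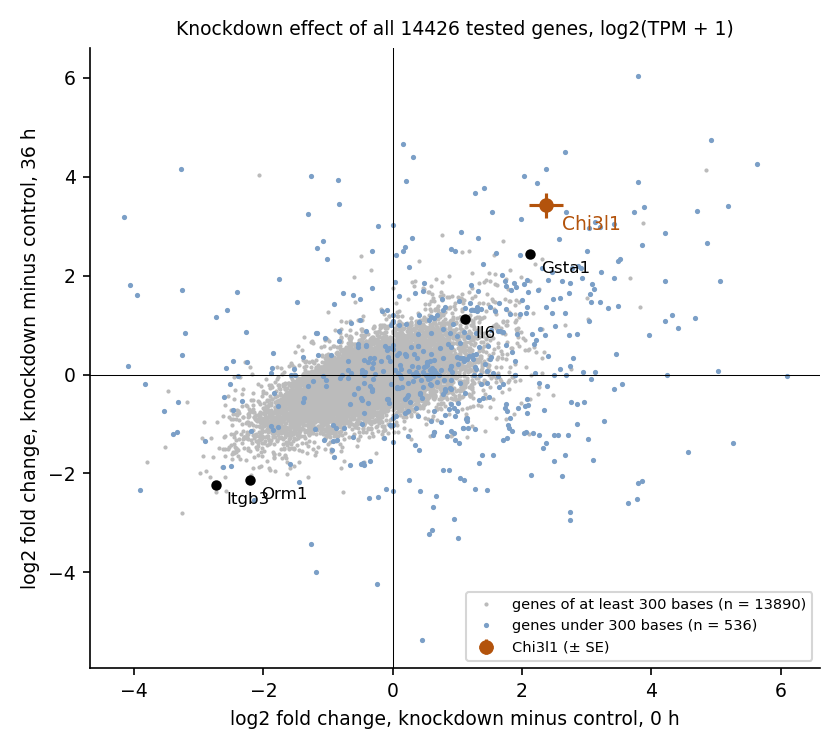
Knockdown effect at 36 h against the effect at 0 h for each tested gene, both as log2 differences in TPM + 1, with genes under 300 bases in blue, Chi3l1 with its SE, and 4 other genes in black. Chi3l1 lies at 2.37 on the 0 h axis and 3.42 on the 36 h axis.

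The difference of Chi3l1 between 36 h and 0 h is also given without a test, since every library in it entered the knockdown effects that chose the gene. All 3 control 36 h libraries lay below all 3 control 0 h libraries, and the 36 h mean was 0.526 times the 0 h mean. The log2 difference was -0.91 (SE 0.260). It was -0.90 with median-of-ratios scaling and -0.86 without control 36 h library 4. In the knockdown the 36 h mean was 1.06 times the 0 h mean, with a log2 difference of 0.15 (SE 0.260) as deposited and -0.25 after scaling.

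The high level of Chi3l1 was next set against its family. Of the 10 genes that the deposited annotation gives the glycosyl hydrolase domain of this family, Chi3l1 had the highest level in every group. Chil3 and Chia1 were listed at 0 in all libraries. Chil5 reached 0.06 TPM at most, Chil6 0.14 TPM and Chil4 1.18 TPM. Ovgp1, the oviduct glycoprotein gene, reached 1.81 TPM.

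The remaining 3 members were expressed at modest levels. Chit1, the active chitinase chitotriosidase, held 38.0 ± 3.08 TPM in control and 21.0 ± 8.55 in knockdown at 0 h, and 29.1 ± 2.30 and 24.0 ± 2.47 at 36 h (SD, n = 3). Its 0 h difference of -0.91 (SE 0.285) passed narrowly at an adjusted p of 0.0477 with limma, where 14.6% of tested genes were called lower. That call was lost in 17 of 24 alternatives, among them 9 of the 12 that leave out 1 library, with differences between -1.13 and -0.33. At 36 h the difference was -0.27 (adjusted p = 0.744). Chid1, a lysosomal chitinase-domain gene, held means of 48.8 and 51.0 TPM in control and 61.8 and 77.9 in knockdown at 0 h and 36 h. Its knockdown 0 h libraries held 89.2, 14.8 and 81.3 TPM, library 2 being the low one. Without that library Chid1 rose at both times, by 0.79 at 0 h (adjusted p = 0.00628) and 0.61 at 36 h (0.0147), against -0.02 (0.975) and 0.61 (0.660) with it. With median-of-ratios scaling of all libraries Chid1 did not pass at either time (0.48, adjusted p = 0.346, and 0.72, 0.274). Ctbs, the lysosomal chitobiase, held 5.8 and 7.1 TPM in control and 7.3 and 9.9 in knockdown.

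So 1 of the 4 tested relatives was called lower at 0 h, where 17.7% of all tested genes were called in either direction, and 0 were called at 36 h, where 2.53% were. At an unadjusted p under 0.05, Ovgp1 was higher at both times (0.53 at 0 h, adjusted p = 0.115; 0.56 at 36 h, 0.239). Their log2 differences at 36 h ran from -0.27 to 0.61, against 3.42 for Chi3l1.

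**Figure D3:**
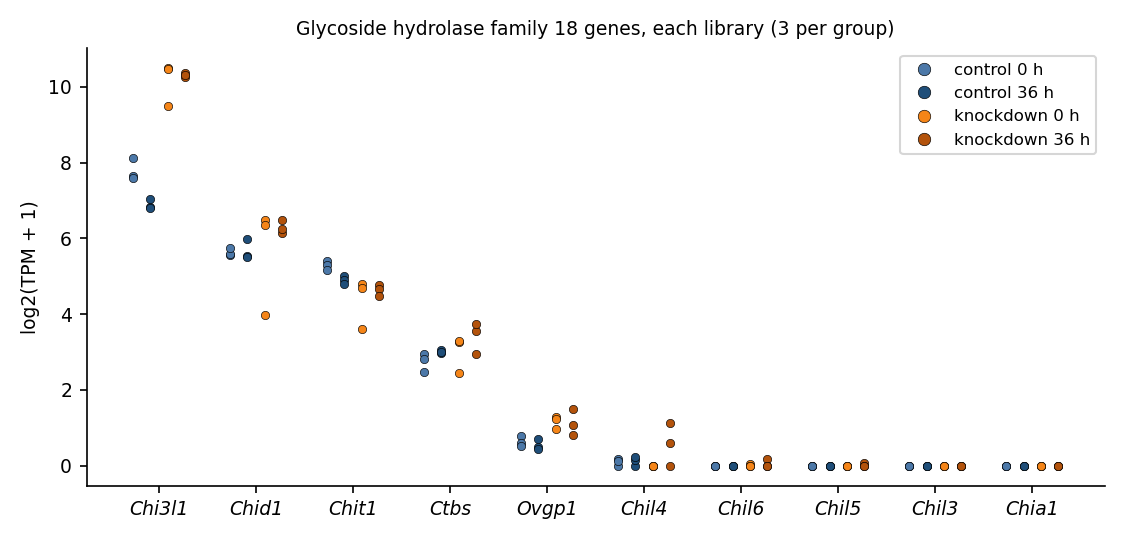
Level as log2(TPM + 1) of Chi3l1 and of the other chitinase family genes, 1 point per library, coloured by group. Chi3l1 lies between 110 and 1453 TPM, while the other members lie lower in every group.

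Chit1 is also the next gene to Chi3l1 on chromosome 1 in RefSeq order, and the genes on its other side are Mybph, Adora1, Myog and Ppfia4. Mybph, Myog and Ppfia4 lay below the filter on low values. On the Chit1 side, Prelp (-1.82, adjusted p = 0.00535) and Btg2 (-1.55, adjusted p = 0.00817) fell at 0 h, and both passed with each library dropped in turn. With Chit1, 3 neighbours were thus called lower at 0 h, where 14.6% of all tested genes were. The other tested neighbours, Fmod on the Chit1 side (-0.12, adjusted p = 0.701) and Adora1 (-0.38, adjusted p = 0.235), were not called. At 36 h none of the tested neighbours was called in the fit to all libraries, the lowest adjusted p being 0.0801 for Prelp. RefSeq order was taken from GRCm38.p6, and these neighbours were picked by position.

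Partners of the Chi3l1 protein were measured next, 7 of 10 passing the filter. The decoy receptor gene Il13ra2 reached 1.36 TPM at most. Its co-receptor Tmem219 held 38.8 and 40.9 TPM in control and 50.1 and 40.0 in knockdown at 0 h and 36 h. The galectin-3 gene Lgals3 was abundant, with group means of 1658 to 2381 TPM, and Sdc1 held 247 to 481 TPM; neither was called.

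At 0 h 3 of the 7 partners were called lower (Cd44, Itgb3 and Itgb5) and 0 higher, where 14.6% of all tested genes were called lower and 3.10% higher. The median log2 difference of the 7 was -1.05, against -0.41 over all tested genes. At 36 h 1 was called lower (Itgb3), where 1.64% of all genes were, and 0 higher, with a median of -0.55 against -0.09. At an unadjusted p under 0.05, 0 partners were higher at either time, while 4 were lower at 0 h and 2 at 36 h. With median-of-ratios scaling 1 partner was called higher at 0 h, Tmem219 (0.87, adjusted p = 0.0306), as it was with quantile normalization and with scaling after knockdown 0 h library 2 was dropped. Without control 0 h library 1 the 0 h count of partners called lower was 1, and from only the groups compared it was 0. Without knockdown 0 h library 2 the 36 h count was 3. The share of all tested genes called in these fits was not counted.

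Itgb3, the integrin beta-3 chain, held 20.0, 18.4 and 10.8 TPM in control and 1.45, 0.55 and 3.27 in knockdown at 0 h. At 36 h it held 16.5, 6.19 and 14.1 TPM in control and 1.39, 2.27 and 1.33 in knockdown. Every knockdown library lay below every control at both times. Itgb3 fell by 2.74 (SE 0.422, adjusted p = 0.00316) at 0 h and by 2.24 (adjusted p = 0.0246) at 36 h; at 36 h it did not pass once control 36 h library 1 or 4, or any of the knockdown 36 h libraries, was dropped. Cd44, the hyaluronan receptor, fell from a mean of 56.1 to 27.1 TPM at 0 h (log2 -1.05, adjusted p = 0.0108), but missed the threshold with control 0 h library 1 dropped (0.0521) and after scaling (0.0679).

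Cytokine genes that induce Chi3l1 in other systems were mostly low or not called in the fit as deposited. Of 14 tested cytokine and receptor genes out of 17, 1 was called higher at 0 h and 36 h, Il6 in each case, and 5 were called lower at 0 h (Il6st, Osmr, Il1r1, Il1rn and Il4ra). Of all tested genes 14.6% were called lower and 3.10% higher at 0 h, and 0.894% higher at 36 h. The list's median was -0.66 at 0 h and -0.53 at 36 h, against -0.41 and -0.09 over all tested genes. Median-of-ratios scaling changed the 36 h counts from 1 higher and 0 lower to 2 and 2. Those higher were Il6 and Il1a (1.81, adjusted p = 0.0249), and those lower Osmr and Il1rn. With that scaling 361 of 14426 tested genes were called higher and 496 lower at 36 h. Without knockdown 0 h library 2 the 36 h counts were 2 higher and 4 lower, in a fit whose share over all genes was not counted.

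Il6, an inflammatory cytokine, held 1.26, 1.02 and 0.88 TPM in control and 3.95, 3.16 and 3.26 in knockdown at 0 h. At 36 h it held 1.32, 1.60 and 2.44 TPM in control and 4.22, 3.76 and 7.71 in knockdown. Its control and knockdown libraries did not overlap at either time, at a far lower level than Chi3l1. The share of all tested genes without overlap was not counted, here or for Snai1, Itgb3 and Lyz2. Lack of overlap is therefore only a description. Il6 rose by 1.12 (SE 0.259, adjusted p = 0.0168) at 0 h and by 1.13 (adjusted p = 0.0468) at 36 h. Its 0 h call was lost without any 1 of the control 0 h libraries, and its 36 h call in 10 of 12 alternatives that leave out a library.

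Among the called cytokine receptors, Il1r1, the signalling receptor for interleukin-1, fell by 1.30 (adjusted p = 0.00790) and its antagonist gene Il1rn by 1.91 (adjusted p = 0.00879) at 0 h. Both calls held when each library was left out in turn. Neither held from only the groups compared, where 0 genes of this list were called lower at 0 h. The number called lower at 0 h was 2, 2 and 3 without control 0 h library 1, 2 and 3, and 9 without knockdown 0 h library 3. The share of all tested genes called in these fits was not counted. All 12 transcription factors listed for inflammatory and acute-phase genes were tested. 3 were called lower at 0 h (Stat6, Rela and Ets1), 0 higher, and 0 were called at 36 h, where 14.6% of all genes were called lower at 0 h and 2.53% in either direction at 36 h. Without knockdown 0 h library 2, 1 was called higher and 2 lower at 36 h, and with median-of-ratios scaling 1 higher and 1 lower. That scaling also gave 1 called higher at 0 h. Their median was -0.60 at 0 h and -0.19 at 36 h, against -0.41 and -0.09 over all tested genes. The 0 h count was 0, 1 and 0 without control 0 h library 1, 2 and 3, and 6 without knockdown 0 h library 3. From only the groups compared it was 0. The share of all tested genes called in these fits was not counted.

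Chi3l1 is known from the involuting gland, and 17 of 18 listed involution and acute-phase genes passed the filter. At 0 h 9 were called lower (Orm1, Orm2, Cd14, Socs3, Bcl3, Lbp, Ltf, Cp and Hp) and 0 higher, where 14.6% of all genes were called lower. At 36 h 3 were called lower (Orm1, Orm2 and Bcl3) and 0 higher, where 1.64% of all genes were called lower. The medians were -1.002 and -0.81, against -0.41 and -0.09 over all tested genes. At 0 h the count was 4 without control 0 h library 3, 5 without control 0 h library 2 and 0 from only the groups compared. At 36 h it was 8 with knockdown 0 h library 2 dropped and 5 with knockdown 0 h library 3 dropped. It was 0 when the one dropped was control 36 h library 4 or knockdown 36 h library 3, and 1 for any of the control 0 h libraries, control 36 h library 1, or knockdown 36 h libraries 1 and 2. The share of all tested genes called in these fits was not counted. At an unadjusted p under 0.05, 10 were lower and 0 higher at 0 h, and 9 and 0 at 36 h. With median-of-ratios scaling 1 was called higher at 0 h, Lcn2 (0.94, adjusted p = 0.0440), and Bcl3 was no longer called (0.0960). That scaling called 1249 of 14426 tested genes higher and 1469 lower at 0 h. Cp was then also called lower at 36 h (-0.81, adjusted p = 0.0106).

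Orm1, which encodes the acute-phase orosomucoid, held 14.9, 12.1 and 17.3 TPM in control and 2.19, 2.40 and 2.60 in knockdown at 0 h. At 36 h it held 13.1, 17.2 and 13.5 TPM in control and 1.77, 4.96 and 1.68 in knockdown. It fell by 2.20 (SE 0.297, adjusted p = 0.00188) at 0 h and by 2.13 (adjusted p = 0.00910) at 36 h, while Chi3l1 stood higher in the same libraries. At 36 h Orm1 missed the threshold with control 36 h library 4 (0.0511) or knockdown 36 h library 3 (0.0524) dropped. Cp, the copper carrier ceruloplasmin, held means of 221 TPM in control and 82 in knockdown at 0 h and fell by 1.47 (SE 0.239, adjusted p = 0.00390).

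Lcn2, a lipocalin of involution and inflammation, differed from Chi3l1 in its change with time in the knockdown. It held 109, 121 and 105 TPM in control and 157, 155 and 137 in knockdown at 0 h. Neither knockdown effect passed as deposited (adjusted p = 0.190 and 0.809). With median-of-ratios scaling Lcn2 was called higher at 0 h (0.94, adjusted p = 0.0440), the direction of Chi3l1. With time in the control, where 0.360% of genes were called (0.250% higher and 0.111% lower), 2 of the 17 were called lower (Lcn2 and Ltf). Lcn2 then stood at 46.9, 33.2 and 46.6 TPM, and fell by 1.40 on the log2 scale (SE 0.225, adjusted p = 0.0231). This did not pass with any of the 6 control libraries dropped, nor after scaling (0.0713). In the knockdown, where 0.125% of genes were called lower with time, 1 of the 17 was called lower, Lcn2, at 38.8, 42.4 and 64.0 TPM (log2 -1.64, adjusted p = 0.00572). Lcn2 thus fell with time in the knockdown while Chi3l1 stayed near its 0 h mean.

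**Figure D4:**
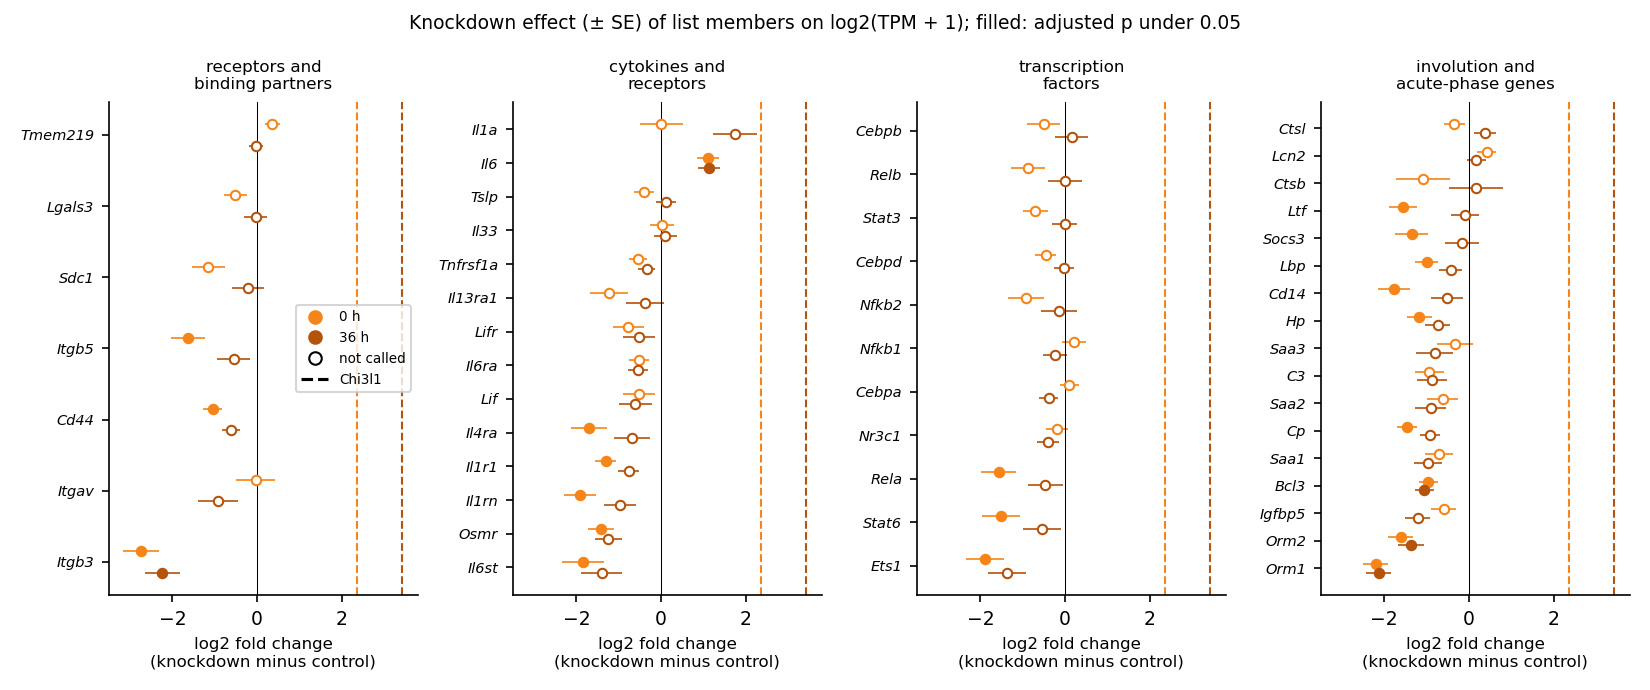
Log2 difference between knockdown and control at 0 h and 36 h for tested partners, cytokines, transcription factors and acute-phase genes, with SE; filled points passed at an adjusted p of 0.05, and dashed lines mark Chi3l1. Chi3l1 lies at 2.37 and 3.42, and Orm1 at -2.20 and -2.13.

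Milk genes were mostly near 0 in these cells, with 4 of 11 passing the filter. Mfge8 and Xdh were called lower at 0 h, where 14.6% of all genes were called lower. The milk fat globule gene Btn1a1 was called higher at 36 h, where 0.894% of genes were called higher. It was also called higher with time in the knockdown, where 0.998% of genes were called higher and 1.12% in either direction. The Btn1a1 call at 36 h was lost in 8 of 12 alternatives that leave out a library. The Mfge8 and Xdh calls were both lost without control 0 h library 1 or 2, and that of Mfge8 also without library 3.

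Because macrophages and neutrophils make Chi3l1, their markers were summed in every library. The 12 markers summed to 23.6 to 28.4 TPM in control and 17.3 to 29.4 in knockdown at 0 h, and to 8.60 to 10.5 in control and 7.60 to 9.68 in knockdown at 36 h. The sums overlapped between control and knockdown at both times, and were carried mostly by Cd68 and S100a8. 4 of the 12 reached 1 TPM in any library (Cd68, S100a8, Lyz2 and Csf1r), the leukocyte antigen gene Ptprc reached 0.17 TPM at most and the macrophage gene Adgre1 0.08 TPM. Of the 3 tested markers 0 were called in the knockdown at 0 h or 36 h with limma, and at an unadjusted p under 0.05, 1 was lower at 0 h (Cd68) and 0 at 36 h. Over all genes 17.7% were called at 0 h and 2.53% at 36 h. Lyz2, the lysozyme gene of macrophages, held 0.86, 0.56 and 0.75 TPM in control and 2.13, 1.48 and 1.77 in knockdown at 36 h, without overlap (log2 0.69, adjusted p = 0.449). At 0 h it held 1.46, 0.73 and 0.72 TPM in control and 1.99, 0 and 2.53 in knockdown. Without knockdown 0 h library 2, Lyz2 was called higher at 0 h (0.74, adjusted p = 0.0375) and at 36 h (0.69, 0.0367), and from only the groups compared it was called higher at 36 h (0.0477). Without knockdown 0 h library 3, Cd68 was called lower at 0 h (-0.77, adjusted p = 0.0333). The part of these cells in the Chi3l1 values was not tested. Cd68 was called lower with time in both control (-1.68), where 0.111% of genes were called lower, and knockdown (-1.46), where 0.125% were. The first call was lost with control 0 h library 1 or 3 or any control 36 h library dropped, and the second with any knockdown 36 h library dropped.

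The 9 mammary epithelial markers, all tested, summed to 10196 to 10417 TPM in control at 0 h and 16030 to 18984 at 36 h. In knockdown they summed to 3373 to 10388 TPM at 0 h, the lowest being library 2, and to 19577 to 25576 at 36 h. The cells thus carried the labelled epithelial keratins. Itga6 was called lower at 0 h, where 14.6% of all genes were. Krt5 was called higher with time in both control (1.15), where 0.250% of genes were called higher, and knockdown (1.68), where 0.998% were, as was Krt14 in the knockdown (1.88). Without knockdown 0 h library 3, 6 of the 9 were called lower at 0 h. The share of all tested genes called in that fit was not counted, so this count has no background beside it. Of the calls in the fit to all libraries, that of Krt5 in the knockdown held with each library dropped in turn. Each of the others was lost in at least 8 of 12 cases. These sums were higher at 36 h and lowest in knockdown 0 h library 2, which also had the lowest Chi3l1 level of the knockdown libraries, and their part in the Chi3l1 values was not tested.

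Genes with the most similar pattern were listed last, by Pearson correlation with Chi3l1 on log2(TPM + 1) over the 12 libraries. The 8 most positive were Fibp (0.987), Gsta1 (0.976), Plaat3 (0.975), Ergic3 (0.967), Psme1 (0.964), Cox4i1 (0.955), Sdhaf4 (0.953) and Ddrgk1 (0.951). The 4 most negative were Yipf5 (-0.974), Acsf2 (-0.968), Mif (-0.959) and Cenph (-0.959). The libraries fall into control and knockdown clusters, so these values mainly record that gap. Snai1, the target of the knockdown, had the value -0.955.

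Gsta1, a glutathione S-transferase, came nearest to Chi3l1 in size as well. It held 29.6 ± 2.46 and 24.1 ± 3.18 TPM in control at 0 h and 36 h, and 147 ± 70.6 and 136 ± 22.0 in knockdown (SD, n = 3), with log2 differences of 2.13 and 2.44. Reads of Gsta1 may be shared with close paralogs. The proteasome activator gene Psme1 and the respiratory chain gene Cox4i1 followed the same order at differences of 0.53 and 0.65, and 0.58 and 0.58. Acsf2, an acyl-CoA synthetase gene, ran opposite, at 4.57 and 6.41 TPM in control and 0.787 and 0.847 in knockdown.

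The list depended on the scaling. After median-of-ratios scaling 4 of the 12 genes were still within the first 50 of their direction, with Gsta1 and Acsf2 at place 3, Plaat3 at 10 and Fibp at 26. Leaving out 1 library at a time kept 11 or 12 of them within the first 50.

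**Figure D5:**
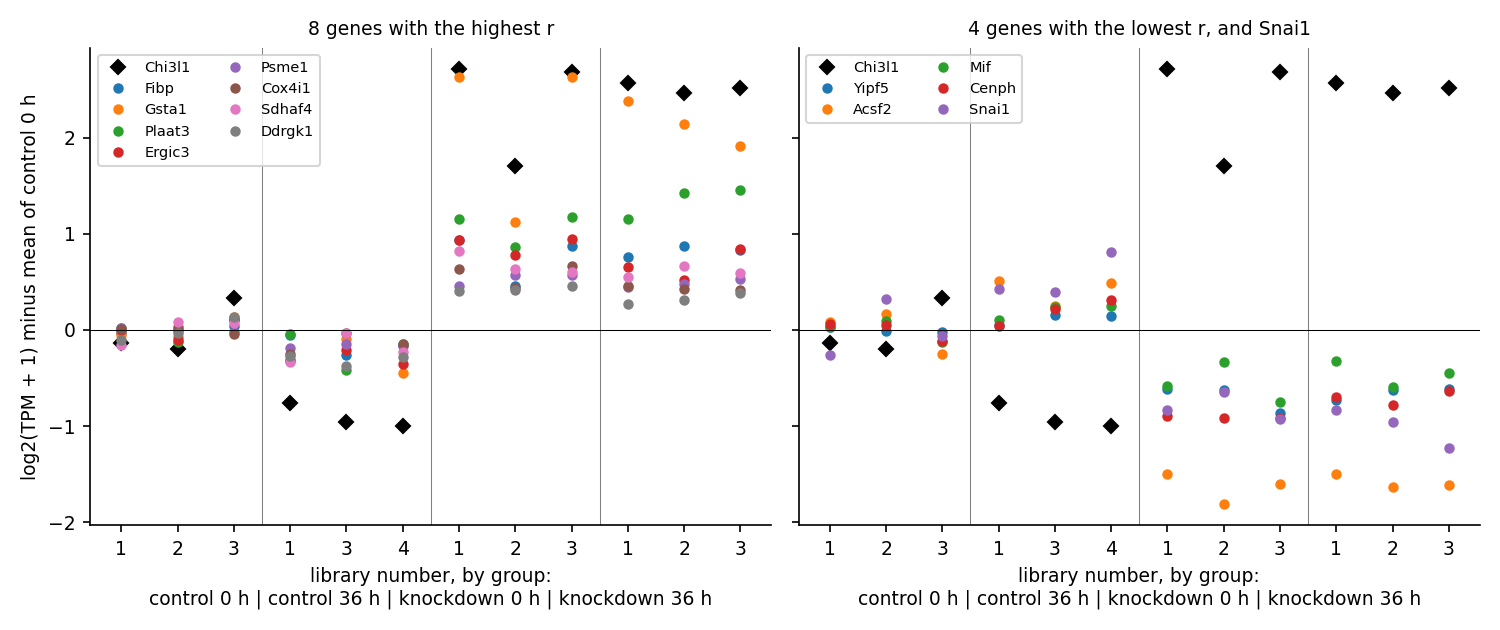
Level of each pattern gene and of Chi3l1 in the 12 libraries, as log2(TPM + 1) minus its control 0 h mean, with 1 marker per library; positive genes are on the left, negative genes and Snai1 on the right. Chi3l1 and Gsta1 show the widest gap between control and knockdown among the positive genes.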

How the data were processed

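Stranded mRNA libraries of 12 HC11 samples were sequenced. The authors deposited TPM values per gene; depth is not given, so no interval from counting was made. Per the submitters' processing notes, FastQC, cutadapt 1.9.1, HISAT2 2.2.1, HTSeq, DESeq2 and build GRCm39 were used, roles not given; RefSeq promoters are of GRCm38.p6.

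Genes reaching 1 TPM in 3 or more libraries were fitted in limma 3.58.1 (R 4.3.3) on log2(TPM + 1), with 1 mean per group and a trended variance. p-values were adjusted over 14426 genes at a threshold of 0.05. The fit was tested on simulated data. The control time difference of Chi3l1, planned as a test, is given as a description because its libraries entered the ranking. Chi3l1 and the gene lists were chosen with earlier results of these data known. Named were Chi3l1, Snai1, the 8 most positively and 4 most negatively correlated genes (mean of at least 5 TPM in a group, no predicted genes or pseudogenes), 3 neighbours by rank on each side, all family members, and per list the 3 highest members and up to 4 called per comparison; other called members and chromosome neighbours were named after their values were seen. Fold changes on this scale understate changes of low genes. The values of 1 listed transcription factor are not reported here. Alternatives were other pseudocounts, filters and scalings, a replicate block, the compared groups alone, and leaving out libraries. Shares of all tested genes called were counted only for the fit to all libraries, as deposited and with median-of-ratios scaling.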

Additional observations from a re-analysis of the deposited data

How the results depend on the processing

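The Chi3l1 effect at 36 h kept its size under all 24 alternatives (3.38 to 3.56). The 0 h effect was 2.89 with median-of-ratios scaling, with or without the replicate block, 2.20 to 2.70 when 1 library was left out, 2.70 without knockdown 0 h library 2 and control 36 h library 4, and 2.90 without knockdown 0 h library 2 with that scaling; the last pair of settings was chosen after seeing the data. Its rank ran from 63 to 313 at 0 h and from 18 to 80 at 36 h, the highest of each with a pseudocount of 0.1 TPM. The control time difference was -0.90 with median-of-ratios scaling, -0.91 without knockdown 0 h library 2, and -0.86 and -0.90 in the added settings. It ran from -1.01 to -0.74 over all alternatives, and from -1.003 to -0.74 leaving out 1 library. The knockdown time change was -0.25 with scaling and with block and scaling, -0.18 to 0.32 leaving out 1 library, and -0.18 and -0.27 in the added settings.

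Whether the numbers in the titles pair the libraries is not known. Correlations of same-numbered deviations from group means ran from -0.20 to 0.13. They cannot settle it, since differently numbered libraries were not compared. With the replicate block the control time difference was -1.01, and -0.89 with block and scaling. Called list members, 25 at 0 h, 6 at 36 h, 4 with time in control and 5 with time in knockdown, numbered 13, 0, 0 and 1 with the block, 15, 0, 0 and 3 with block and scaling, and 0, 21, 15 and 0 from only the groups compared. Without a filter they were 12, 1 and 2 in the first 3 comparisons. At 36 h and with time in control they were 13 and 7 with median-of-ratios or quantile scaling, and 13 and 11 without knockdown 0 h library 2 and control 36 h library 4. Without library 2 and with scaling they were 26, 18 and, with time in knockdown, 11. Leaving out 1 library gave 9 to 41, 0 to 28, 0 to 17 and 3 to 9. Of the 12 pattern genes, 4 stayed in the first 50 with Spearman correlation and 4 with scaling. Over all genes, scaling moved the calls from 447 higher and 2103 lower to 1249 and 1469 at 0 h, and from 129 and 236 to 361 and 496 at 36 h. With no depth given, genes near 1 TPM, such as Snai1 and Il6, have unknown counting error.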
